A study of Oryctolagus cuniculus with 39 samples.

Results

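CIDEA, CIDEC and PLIN2 encode proteins of the lipid droplet, and their transcripts were followed while the brown adipose tissue (BAT) of New Zealand White rabbits regressed. The genes were chosen as a list of 6 symbols, the CIDE genes CIDEA and CIDEC and the perilipins PLIN2, PLIN3, PLIN4 and PLIN5, selected on measured values in which CIDEA did not fall with UCP1. Of the 6 symbols, 3 were found in both expression tables, which held 20589 gene identifiers for the stromal vascular fraction and 20183 for whole tissue. These were CIDEA (gene identifier 100347318), CIDEC (103345507) and PLIN2 (100338869), and PLIN3, PLIN4 and PLIN5 were not analysed here. The change of CIDEA and UCP1 with age was used to choose the genes, so it is described without a test. CIDEC and PLIN2 were tested between ages, and all 3 genes were tested between depots.

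RNA was sequenced in bulk at day 1 and at 3, 6 and 12 weeks of age from 3 kinds of material, with 3 libraries for each material and age and 36 in all. Total iBAT was whole interscapular brown fat. The iBAT SVF and the sBAT SVF were the stromal vascular fractions, the cells left after the fat cells are taken out, of the interscapular and the subscapular depot. No treatment or genotype is given for any group, so the groups differed by age, depot and fraction. The labels do not say whether the libraries of a group came from separate animals, so the p-values measure the spread between these libraries, which may be technical. The 3 single-cell samples were not used here.

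A lipid droplet is a core of triglyceride under a coat of proteins. CIDEA and CIDEC sit where droplets touch and let lipid pass from the smaller to the larger droplet, so that droplets grow and fuse. CIDEA is abundant in brown fat and CIDEC in fat cells with a single large droplet. PLIN2 coats droplets in many cell types and shields them from lipases, and it is known as a marker of lipid storage in cells other than mature fat cells. UCP1 is the uncoupling protein with which brown fat makes heat.

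The deposited values were FPKM (fragments per kilobase of transcript, scaled to a common number of mapped fragments), a level per length that allows genes of a library to be set side by side. The tables of total iBAT and of the SVF were normalized separately, so levels are not compared between them. Read depth is not given with the tables. Summed FPKM ran from 389593 to 548723 per library, with 12416 to 17799 genes above 0. The sBAT SVF libraries of 3 weeks stood apart from all others, since ADORA1 and LOC100009266 held 63.9% to 80.4% of their summed FPKM, against at most 37.3% in any other library. A gene that takes a large share lowers the FPKM of the others, and the median log2 change of all tested genes was -0.88 in sBAT SVF between day 1 and 3 weeks and 1.17 between 3 and 6 weeks. Results that use these libraries are therefore given as deposited and after median ratio scaling, which brings the median gene near no change. In total iBAT, replicate 3 of 3 weeks had 5732 FPKM summed over 8 skeletal muscle markers, against 28.7 and 19.5 in the other libraries of that age.

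CIDEA was among the abundant transcripts of total iBAT at every age and was higher at every later age than at day 1. At day 1 the 3 libraries held 953, 950.0 and 555 FPKM of CIDEA. The libraries of 3 weeks held 977, 2301 and 1594 FPKM. Those of 6 weeks held 1278, 1294 and 1390.4 FPKM, and those of 12 weeks 1507, 1528 and 1799 FPKM. Each library of 3, 6 and 12 weeks lay above each library of day 1, while 3 weeks overlapped with both later ages. The spread at 3 weeks was the widest of the 4 ages for CIDEA, at 1624 ± 663 FPKM (SD, n = 3), against 1321 ± 60.9 at 6 weeks. The mean of 12 weeks was 1.97 times that of day 1, a log2 difference of 1.01 where the median of all tested genes was 0.19.

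UCP1 went the other way over the same libraries, which is the pattern that brought CIDEA into the list. The day 1 libraries held 5102, 5163 and 5779.8 FPKM of UCP1 and those of 3 weeks 870.2, 671 and 942 FPKM. Later libraries held 22.4, 2.08 and 1.69 FPKM (6 weeks) and 4.16, 4.21 and 0.44 FPKM (12 weeks). No library of 6 or 12 weeks reached those of 3 weeks, and no library of 3 weeks reached those of day 1.

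**Figure D1:**
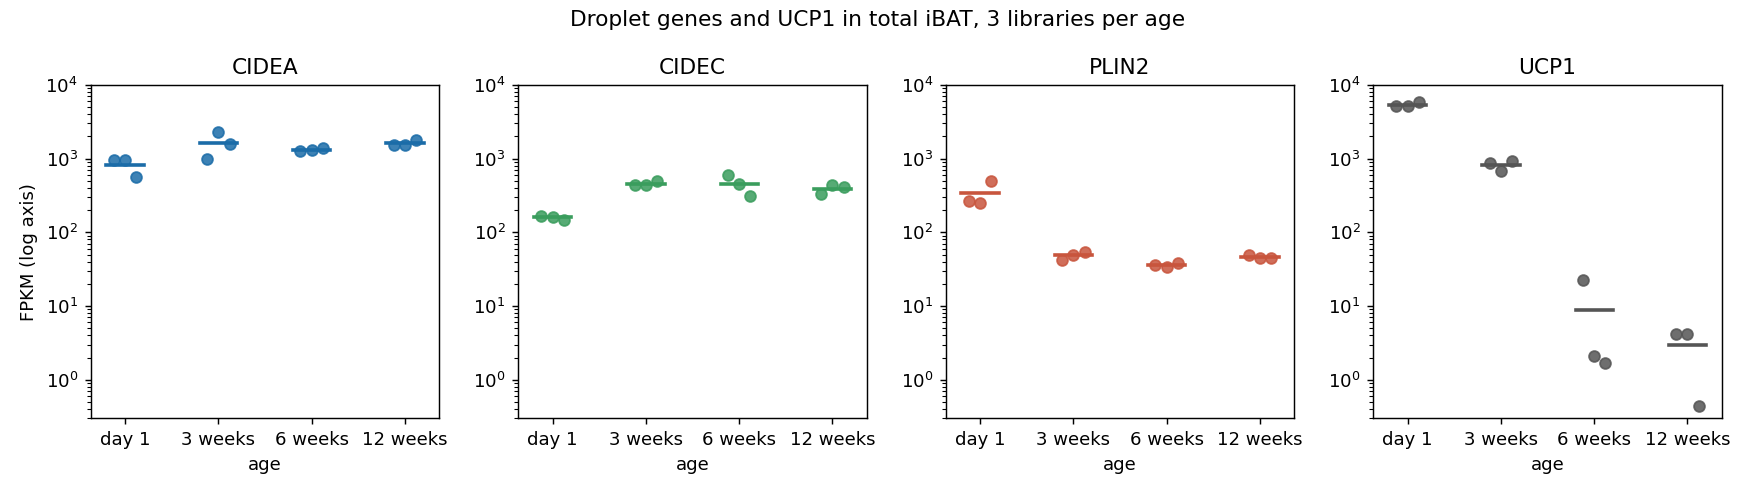
FPKM of CIDEA, CIDEC, PLIN2 and UCP1 (vertical log axis) in each total iBAT library at 4 ages, with points for libraries and short lines for the mean of 3. CIDEA and CIDEC were higher at every later age than at day 1, PLIN2 was between 34.3 and 54.6 FPKM from 3 weeks on, and UCP1 ended at 0.44 to 4.21 FPKM.

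CIDEC rose between day 1 and 3 weeks in total iBAT, and no later step was called. Its values were 167, 161 and 149 FPKM at day 1 and 439, 432 and 491 FPKM at 3 weeks. They were 601, 448 and 314 FPKM at 6 weeks and 327, 439.7 and 406 FPKM at 12 weeks. Every later library exceeded every library of day 1, and the 3 later ages overlapped with one another. The mean at 3 weeks was 2.85 times that of day 1, a rise of 1.51 on the log2(FPKM + 1) scale (SE 0.21, limma with Benjamini-Hochberg adjustment over all tested genes, adjusted p = 0.000307), where the median gene changed by 0.25. At 12 weeks the mean was 2.46 times that of day 1 (log2 1.28, SE 0.21, limma adjusted p = 0.00038). The step from 3 to 6 weeks was -0.05 (95% interval -0.50 to 0.40, limma adjusted p = 0.913). From 6 to 12 weeks it was -0.18 (-0.63 to 0.27, limma adjusted p = 0.698). Without the 3 weeks library that held muscle transcripts the early rise was 1.45 (limma adjusted p = 0.00137).

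PLIN2 fell over the interval in which CIDEC rose. The day 1 libraries held 269.8, 251 and 495 FPKM of PLIN2, and those of 3 weeks 42.2, 49.0 and 54.6 FPKM. The 6 weeks libraries held 36.3, 34.3 and 38.4 FPKM and the 12 weeks libraries 49.3, 44.7 and 44.8 FPKM. Day 1 stood above all later ages with a wide gap, and replicate 3 of day 1, which had the highest PLIN2, had the lowest CIDEA of that age. The mean fell from 339 ± 136 FPKM to 48.6 ± 6.22 FPKM at 3 weeks (SD, n = 3), a log2 change of -2.71 (SE 0.21, limma adjusted p = 1.46e-05), and only 0.117% of tested genes had a more negative change. From day 1 to 12 weeks the log2 change was -2.78 (SE 0.21, limma adjusted p = 1.87e-06). All libraries of 6 weeks lay below those of 3 and of 12 weeks, but these differences did not pass the test, with log2 changes of -0.40 (95% interval -0.87 to 0.06, limma adjusted p = 0.268) and 0.34 (-0.13 to 0.81, limma adjusted p = 0.451).

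Of the 2 genes tested between ages in total iBAT, both were called between day 1 and 3 weeks, where 41.7% of 12853 tested genes were called. Both were also called between day 1 and 12 weeks, where 47% of genes were. With such shares of all genes called, the count itself sets these genes apart from nothing, and their direction and size are the description. Neither was called between 3 and 6 weeks (10.9% of genes) or between 6 and 12 weeks (0.195% of genes) by limma, and at an unadjusted p under 0.05 the count was also 0 in both.

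The makeup of the droplet transcripts differed between the ages. Of the summed FPKM of CIDEA, CIDEC and PLIN2, PLIN2 held 26.4% ± 12.9 at day 1 (SD, n = 3) and 2.40% ± 0.58, 2.01% ± 0.17 and 2.28% ± 0.32 at 3, 6 and 12 weeks. CIDEA held the largest share at each age in total iBAT, 61.5% at day 1 and 78.6% at 12 weeks. There were 2.16 FPKM of PLIN2 for each FPKM of CIDEC at day 1 and 0.107 at 3 weeks. Set against ADIPOQ, the transcript of the fat cell hormone adiponectin, which was at 529 FPKM at day 1 and 5515 at 12 weeks, CIDEA gave another picture. Per 100 FPKM of ADIPOQ there were 164 ± 69.4 FPKM of CIDEA at day 1, 137 ± 47.8 at 3 weeks, 29.4 ± 2.45 at 6 weeks and 29.2 ± 3.08 at 12 weeks. CIDEA thus stood higher against all transcripts and lower against ADIPOQ in the older tissue. The choice of fat cell transcript matters here. FABP4 was at 24440 FPKM at day 1 and 21910 at 12 weeks, AQP7 at 83.9 and 87.0, and PCK1 at 752 and 139. LEP (0.963 and 270 FPKM), THRSP (667 and 1781 FPKM) and LIPE (98.5 and 222 FPKM) were higher at 12 weeks, as ADIPOQ was. In bulk tissue, fewer cells of a type and less RNA per cell cannot be told apart.

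**Figure D2:**
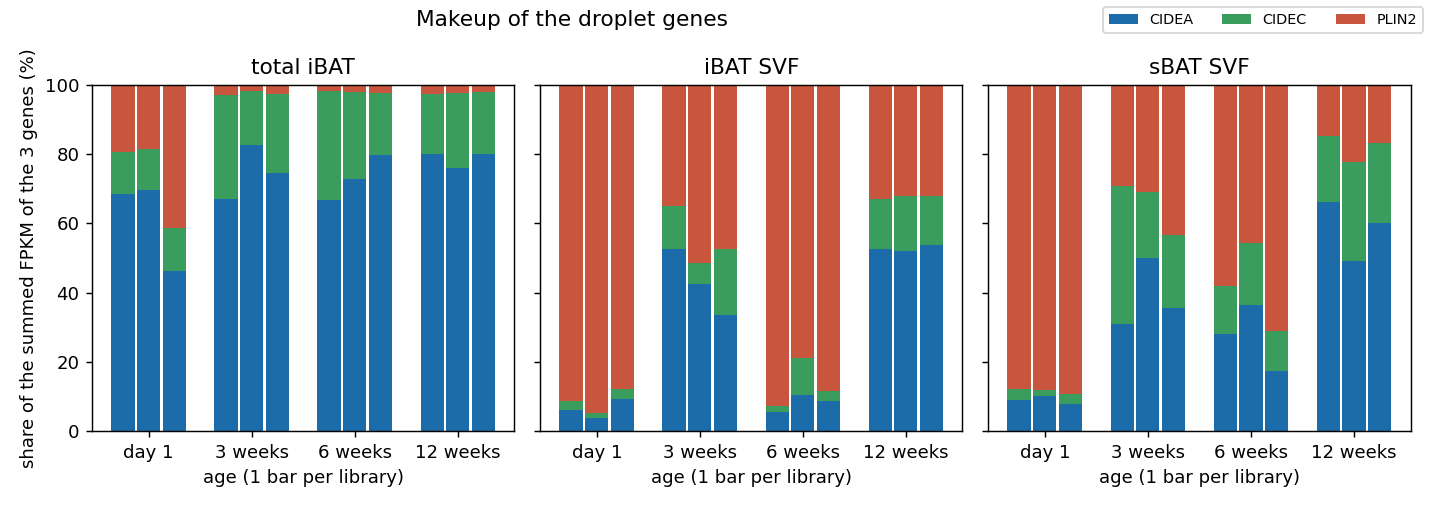
Share of CIDEA, CIDEC and PLIN2 in their summed FPKM (vertical axis, %), with 1 bar per library and 3 bars per age. PLIN2 held 26.4% of the sum in total iBAT at day 1 and 2.28% at 12 weeks, while its iBAT SVF shares were 91.3% and 32.3%.

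The SVF held the same genes in another order, with PLIN2 as the main droplet transcript at day 1. PLIN2 took 91.3% ± 3.39 of the summed FPKM in the iBAT SVF at day 1 and 88.4% ± 0.87 in the sBAT SVF (SD, n = 3). At 12 weeks it took 32.3% ± 0.60 and 18.0% ± 3.92, and CIDEA took 52.7% ± 0.88 and 58.5% ± 8.52. The iBAT SVF of 6 weeks returned to a PLIN2 share of 86.6% ± 7.06. PLIN2 per FPKM of CIDEC was 44.9 at day 1 and 2.17 at 12 weeks in the iBAT SVF, and 39.1 and 0.761 in the sBAT SVF.

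CIDEA in the iBAT SVF was low at day 1, high at 3 weeks, low at 6 weeks and high at 12 weeks. Its values were 5.43, 2.51 and 10.25 FPKM at day 1 and 108, 47.2 and 37.7 FPKM at 3 weeks. At 6 weeks they were 6.69, 4.01 and 5.86 FPKM, and at 12 weeks 50.3, 54.0 and 52.6 FPKM. The low ages (day 1 and 6 weeks) overlapped with each other, the high ages (3 and 12 weeks) did as well, and no low library reached a high one. The mean of 12 weeks was 8.63 times that of day 1.

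CIDEA in the sBAT SVF was, as deposited, lowest at day 1 and highest at 12 weeks. The libraries held 10.6, 10.6 and 7.89 FPKM at day 1 and 15.5, 28.4 and 33.1 FPKM at 3 weeks. They held 26.7, 50.3 and 23.7 FPKM at 6 weeks and 177, 104 and 126 FPKM at 12 weeks. As deposited, all 12 weeks libraries exceeded all others, 3 and 6 weeks overlapped, and day 1 was below both. The mean of 12 weeks was 14.0 times that of day 1, a log2 difference of 3.65, and 3.17 after median ratio scaling. The step from day 1 to 3 weeks was 1.27 as deposited and 2.42 after scaling. From 3 to 6 weeks it was 0.36 as deposited, -1.11 after scaling and -1.25 with ADORA1 and LOC100009266 left out of the totals, so no direction is drawn for this step.

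CIDEC followed CIDEA through the iBAT SVF ages. Day 1 libraries held 2.12, 0.93 and 3.1 FPKM and 3 weeks libraries 25.2, 6.77 and 21.5 FPKM. At 6 weeks the values were 2.01, 4.16 and 2.05 FPKM, followed by 13.8, 16.7 and 14.0 FPKM at 12 weeks. As for CIDEA, every library of 3 and 12 weeks was above every library of day 1 and 6 weeks. CIDEC rose by 2.51 on the log2 scale from day 1 to 3 weeks (SE 0.38, limma adjusted p = 0.000209). From 3 to 6 weeks its mean fell to a level that 3 weeks exceeded 6.51 times (95% interval of the log2 change -2.99 to -1.41, limma adjusted p = 0.00401), a call that was lost when the libraries of these 2 ages were fitted alone (limma adjusted p = 0.0593). From 6 to 12 weeks it rose again by 2.13 (SE 0.38, limma adjusted p = 0.00145), and the change from day 1 to 12 weeks was 2.44 (SE 0.38, limma adjusted p = 6.66e-05). The median of all tested genes moved by at most 0.13 in these comparisons.

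CIDEC in the sBAT SVF rose early and again late. Its values were 3.84, 1.6 and 2.62 FPKM at day 1, and 19.8, 10.8 and 19.5 FPKM at 3 weeks. They were 13.3, 24.9 and 15.4 FPKM at 6 weeks and 51.4, 59.8 and 48.6 FPKM at 12 weeks. As deposited, the day 1 libraries were below all others, 3 and 6 weeks overlapped, and 12 weeks was above all. From day 1 to 12 weeks the mean rose 19.8 times (log2 3.92, SE 0.38, limma adjusted p = 2.77e-07), where the median gene changed by 0.41, and the log2 change was 3.44 after median ratio scaling. The early rise was 2.26 as deposited (SE 0.38, limma adjusted p = 3.08e-05) against a median gene of -0.88, and 3.40 after scaling. Between 3 and 6 weeks the deposited values gave 0.09 (limma adjusted p = 0.822), where the scaled ones gave -1.36 (limma adjusted p = 0.0371, with 16.5% of genes called), so no direction is drawn for this step. The late rise of 1.57 (SE 0.38, limma adjusted p = 0.0116) was lost without sBAT SVF 6 weeks replicate 1 (1.39, limma adjusted p = 0.0524). After scaling the late rise was 1.40 (limma adjusted p = 0.0473), about as large as the scaled fall from 3 to 6 weeks. The place of 12 weeks above 3 weeks is therefore stated as deposited only.

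**Figure D3:**
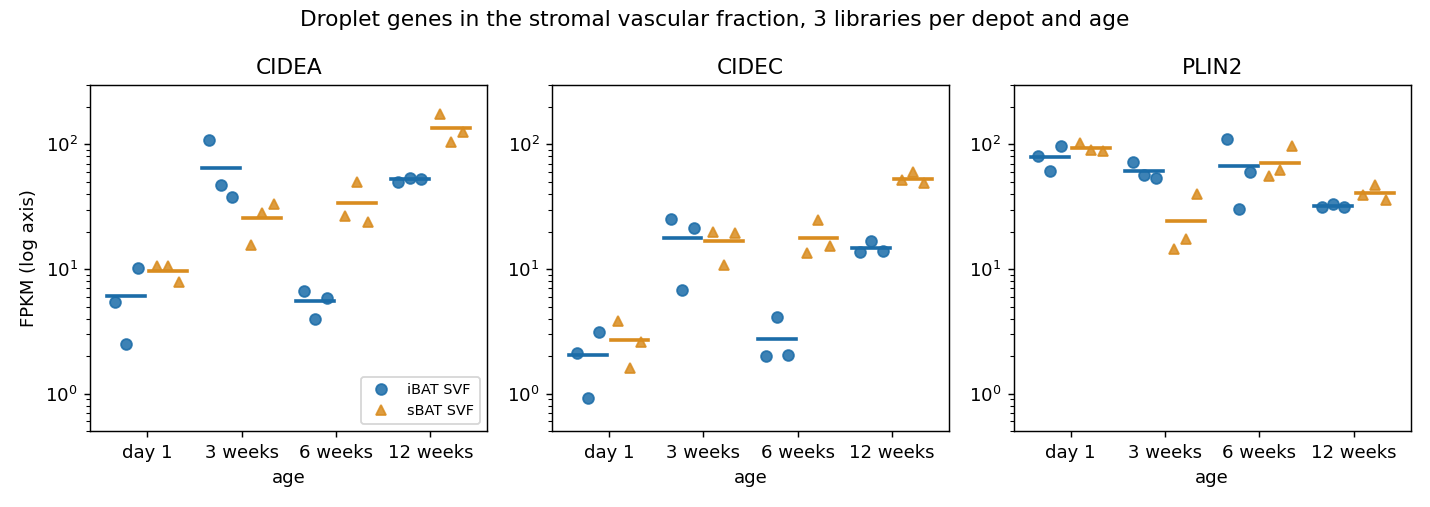
FPKM of CIDEA, CIDEC and PLIN2 (vertical log axis) in each SVF library of the interscapular (circles) and subscapular (triangles) depot at 4 ages, with short lines for the mean of 3. CIDEA and CIDEC of the iBAT SVF were low at day 1 and 6 weeks and high at 3 and 12 weeks, and those of the sBAT SVF had their highest values as deposited at 12 weeks.

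PLIN2 in the iBAT SVF was lower at 12 weeks than at day 1. Its values were 80.1, 61.2 and 97.0 FPKM at day 1 and 71.7, 57.05 and 53.55 FPKM at 3 weeks. The libraries of 6 weeks spread from 110.9 over 59.7 to 30.6 FPKM, and those of 12 weeks held 31.6, 33.2 and 31.3 FPKM. The first 3 ages overlapped, and 12 weeks lay below day 1 and 3 weeks. PLIN2 fell by 1.26 on the log2 scale from day 1 to 12 weeks (SE 0.35, limma adjusted p = 0.00867). The steps from day 1 to 3 weeks (-0.37, 95% interval -1.10 to 0.37, limma adjusted p = 0.507) and from 3 to 6 weeks (-0.03, -0.77 to 0.70, limma adjusted p = 0.976) did not pass. The step from 6 to 12 weeks was -0.86 (limma adjusted p = 0.113), and it passed without iBAT SVF 6 weeks replicate 2 (-1.32, limma adjusted p = 0.0175).

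PLIN2 in the sBAT SVF was also highest at day 1. Its values were 103, 90.85 and 88.4 FPKM at day 1 and 14.5, 17.6 and 40.3 FPKM at 3 weeks. They were 55.4, 62.8 and 96.3 FPKM at 6 weeks and 39.3, 47.0 and 35.6 FPKM at 12 weeks. Day 1 overlapped with 6 weeks alone. From day 1 to 12 weeks PLIN2 fell by 1.20 (SE 0.35, limma adjusted p = 0.00975) while the median gene moved by 0.41, and by 1.67 after median ratio scaling. The dip at 3 weeks depended on the scaling. It was -2.05 as deposited (limma adjusted p = 4.04e-05), -0.90 after median ratio scaling (limma adjusted p = 0.041, with 32.3% of genes called), and -0.85 when ADORA1 and LOC100009266 were left out of the totals (limma adjusted p = 0.0578). The rise from 3 to 6 weeks of 1.63 as deposited (limma adjusted p = 0.000281) was 0.15 after median ratio scaling (limma adjusted p = 0.794). From 6 to 12 weeks the change was -0.77 (95% interval -1.50 to -0.04, limma adjusted p = 0.167).

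Against all genes, the counts were as follows. In the iBAT SVF, CIDEC was the member called of 2 tested between day 1 and 3 weeks (18.7% of 13274 genes called), between 3 and 6 weeks (1.27%) and between 6 and 12 weeks (12.4%), and both members were called between day 1 and 12 weeks (37.3%). Few genes were called between 3 and 6 weeks in this fraction, and only 0.384% of tested genes had a more negative change there than CIDEC. In the sBAT SVF both members were called between day 1 and 3 weeks (71.2%), PLIN2 between 3 and 6 weeks (83.9%), CIDEC between 6 and 12 weeks (10.8%), and both between day 1 and 12 weeks (44.1%). For the change from day 1 to 12 weeks in the sBAT SVF, 0.128% of tested genes lay above CIDEC.

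Ordered by mean, the CIDEC levels of the SVF ran from sBAT at 12 weeks (53.3 FPKM), which stood clear of the next, through sBAT at 6 weeks, iBAT at 3 weeks, sBAT at 3 weeks and iBAT at 12 weeks (17.9 to 14.9 FPKM), whose neighbours overlapped, to iBAT at 6 weeks and both depots at day 1 (2.74 to 2.05 FPKM), which overlapped as well. CIDEA had the same group on top, at 136 FPKM, and the same 3 groups at the bottom, at 5.52 to 9.68 FPKM. For PLIN2 the order began with both depots at day 1 (94.0 and 79.4 FPKM) and ended with iBAT at 12 weeks and sBAT at 3 weeks (32.0 and 24.1 FPKM). The places of sBAT at 3 weeks in these orders hold as deposited only, since PLIN2 between the depots at that age went from -1.43 to -0.20 after median ratio scaling.

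Depots were compared at each age, a difference that the choice of genes did not use. At day 1 none of the 3 genes was called by limma (0.414% of genes called), and at an unadjusted p under 0.05 the count was 0 as well. Their differences, sBAT SVF minus iBAT SVF, were 0.74 for CIDEA (95% interval -0.07 to 1.56), 0.29 for CIDEC (-0.49 to 1.08) and 0.26 for PLIN2 (-0.47 to 1.00) on the log2 scale. The libraries of both depots overlapped for each gene at that age.

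At 6 weeks CIDEA and CIDEC were higher in the subscapular depot, 2 of 3 genes called where 2.47% of all genes were. The mean of CIDEA was 33.6 ± 14.6 FPKM in the sBAT SVF and 5.52 ± 1.37 in the iBAT SVF (SD, n = 3), and every sBAT library was above every iBAT library. The log2 difference was 2.35 (SE 0.39, limma adjusted p = 0.003) and 2.08 after median ratio scaling. CIDEC was at 17.9 ± 6.15 and 2.74 ± 1.23 FPKM, again without overlap, a difference of 2.33 (SE 0.38, limma adjusted p = 0.00231), and of 2.06 after scaling. Only 0.105% of tested genes lay above CIDEA and 0.113% above CIDEC. PLIN2 was at 71.5 and 67.0 FPKM, and its difference of 0.24 (95% interval -0.50 to 0.97) did not pass (limma adjusted p = 0.731) and turned to -0.04 after scaling. Of 7 fat cell markers tested at this age, 2 were also higher in the sBAT SVF, THRSP by 2.38 (limma adjusted p = 0.0322) and PCK1 by 2.19 (limma adjusted p = 0.0364), differences about as large as those of CIDEA and CIDEC, and neither passed after median ratio scaling (limma adjusted p = 0.106 and 0.116). Their part in the CIDEA and CIDEC differences was not tested.

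At 12 weeks the same 2 genes were called, against 22.2% of all genes. CIDEC was at 53.3 ± 5.85 FPKM in the sBAT SVF and 14.9 ± 1.61 in the iBAT SVF (SD, n = 3), with no overlap. The log2 difference was 1.77 (SE 0.38, limma adjusted p = 0.00404) where the median gene was at 0.33, and it was 1.39 after scaling (limma adjusted p = 0.0466). CIDEA was at 136 ± 37.3 and 52.3 ± 1.84 FPKM without overlap, a difference of 1.32 (SE 0.39, limma adjusted p = 0.0223). The call for CIDEA was lost after median ratio scaling (0.94, limma adjusted p = 0.111, with 9.78% of genes called) and without iBAT SVF 12 weeks replicate 1 or 3 or sBAT SVF 12 weeks replicate 1 (limma adjusted p = 0.067, 0.0761 and 0.106). At this age same-numbered libraries of the depots deviated together (r of at least 0.252 in all 3 pairs), and with the replicate number as a block CIDEA also missed the threshold (limma adjusted p = 0.0522). PLIN2 differed by 0.32 (95% interval -0.41 to 1.06, limma adjusted p = 0.523), and by -0.05 after scaling.

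At 3 weeks the differences followed the scaling. CIDEA and PLIN2 were called lower in the sBAT SVF as deposited, at -1.21 (limma adjusted p = 0.00899) and -1.43 (limma adjusted p = 0.0012), where 76.3% of genes were called and the median gene was at -0.95. After median ratio scaling these values were 0.02 (limma adjusted p = 0.976) and -0.20 (limma adjusted p = 0.764), with 7.86% of genes called. CIDEC was at 0.04 as deposited (limma adjusted p = 0.921), and passed as higher in the sBAT SVF when the 2 dominant genes were left out (limma adjusted p = 0.024). No depot difference at 3 weeks is therefore stated for any of the 3 genes.

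**Figure D4:**
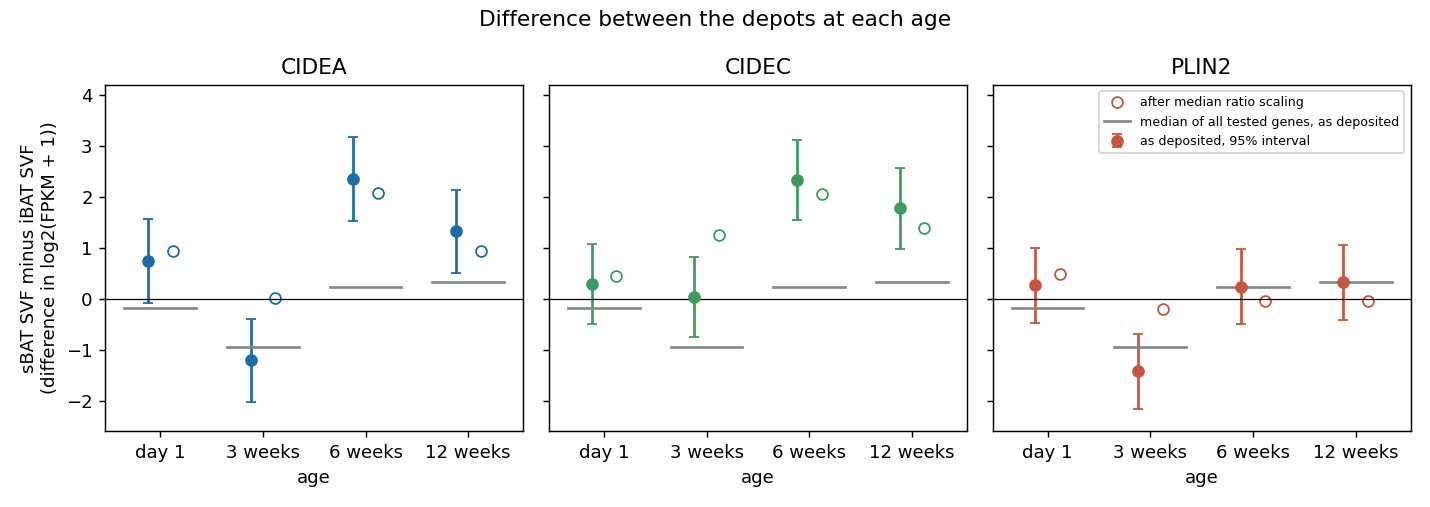
Difference between the depots (sBAT SVF minus iBAT SVF, log2(FPKM + 1) scale, vertical axis) for CIDEA, CIDEC and PLIN2 at 4 ages, as deposited with 95% intervals (filled) and after median ratio scaling (open), with grey lines for the median of all tested genes. CIDEA and CIDEC lay above 2 at 6 weeks on both scales, and at 3 weeks the values of all 3 genes were higher after scaling than as deposited.

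Whether the change from day 1 to 12 weeks differed between the depots was tested as an interaction. No member of 3 was called by limma, where 18.4% of genes were, and 1 reached an unadjusted p under 0.05. CIDEC rose by 1.48 more in the sBAT SVF (SE 0.54, 95% interval 0.37 to 2.59, limma adjusted p = 0.0573), with the median gene at 0.51. After median ratio scaling it rose by 0.95 more (limma adjusted p = 0.441), where 154 of 13274 genes were called. With the 2 dominant genes left out it rose by 1.17 more (limma adjusted p = 0.381), where 91 of 13640 genes were called. As deposited, a call for CIDEC was gained without iBAT SVF day 1 replicate 2 (1.78, limma adjusted p = 0.0309), with the 4 groups compared fitted alone (limma adjusted p = 0.0195) and without the 3 sBAT SVF libraries of 3 weeks in the fit (limma adjusted p = 0.0441). It was also gained with the replicate number as a block (limma adjusted p = 0.0139). The interaction was 0.58 for CIDEA (95% interval -0.58 to 1.74, limma adjusted p = 0.467) and 0.06 for PLIN2 (-0.98 to 1.10, limma adjusted p = 0.939).

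Fat cell transcripts were present in the SVF, and some moved with CIDEA and CIDEC. Of 10 fat cell markers looked up, 8 were found in the SVF. Their summed FPKM in the iBAT SVF was 1835 to 7017 at day 1, 4828 to 7137 at 3 weeks, 1680.2 to 4550.5 at 6 weeks and 2641 to 4555 at 12 weeks. In the sBAT SVF it was 2314 to 5711 at day 1, 812 to 1787 at 3 weeks, 2396 to 4435 at 6 weeks and 4829.9 to 7745 at 12 weeks. FABP4 made up most of these sums, so they mainly give the course of that gene. At day 1 its mean was 4327 FPKM of 4798 in the iBAT SVF and 3796 of 4058 in the sBAT SVF. RETN was at 0 in all iBAT SVF libraries before 12 weeks and LEP in all sBAT SVF libraries of day 1. THRSP, a regulator of fat synthesis in this list, was at a mean of 4.14 FPKM in the iBAT SVF of day 1, 15.9 at 3 weeks, 3.52 at 6 weeks and 29.4 at 12 weeks, an alternation like that of CIDEA and CIDEC. ADIPOQ in the iBAT SVF had means of 447, 549, 672 and 334 FPKM at these ages. The mean of 6 weeks rested on replicate 3 and was 369 FPKM without it. The means of 5 of the 8 markers in the iBAT SVF (THRSP, LEP, LIPE, PCK1 and FABP4) rose, fell and rose again. Unlike CIDEA and CIDEC, PCK1 and FABP4 ended below their day 1 means, at 2.82 against 4.88 FPKM and 3333 against 4327 FPKM. Per 100 FPKM of ADIPOQ, CIDEA in the iBAT SVF was at 1.30, 12.2, 1.11 and 17.4 FPKM and CIDEC at 0.457, 3.28, 0.667 and 4.83 FPKM. Against 100 FPKM of THRSP, CIDEA was at 186, 556, 173 and 181 FPKM, which rose, fell and rose but ended below day 1. CIDEC was at 67.3, 119.9, 78.9 and 51.7 FPKM, with no rise from 6 to 12 weeks. Against PCK1 the means of both increased from age to age, CIDEA from 159 to 2263 and CIDEC from 57.4 to 626 FPKM per 100 FPKM. PCK1 itself was at 0.89, 1.09 and 0.37 FPKM at 6 weeks, so the ratios of that age rest on very low values. Against AQP7, LIPE and FABP4 both genes kept the alternation. For 100 FPKM of LIPE, CIDEA was at 229, 1333, 221 and 750 FPKM and CIDEC at 79.9, 338, 102 and 211 FPKM. Per 100 FPKM of ADIPOQ, the means of the sBAT SVF were 4.23, 48.7, 6.71 and 18.1 FPKM for CIDEA and 1.18, 32.0, 3.54 and 7.02 FPKM for CIDEC, which were highest at 3 weeks. Of the 7 markers tested between day 1 and 12 weeks, 3 rose and none fell in the iBAT SVF, and 4 rose and none fell in the sBAT SVF. Of all genes, 14.5% rose and 22.8% fell in the iBAT SVF, and 38.3% rose and 5.86% fell in the sBAT SVF. At 12 weeks 5 of the 7 were higher in the sBAT SVF as deposited and none after median ratio scaling. The part of fat cells or fat cell RNA in the CIDEA and CIDEC results was not tested.

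Markers of other cells were also set beside the members. Summed over 8 skeletal muscle markers, the iBAT SVF held 21.4 to 1982 FPKM at day 1 and 1.82 to 95.7 at 12 weeks, and the sBAT SVF 594 to 2604 and 31.9 to 344. The sum over 8 adipose progenitor markers in total iBAT was 1361 to 2227 FPKM at day 1 and 5111 to 10281 at 12 weeks, so it stood higher at the age at which PLIN2 was lower. For 8 macrophage markers the iBAT SVF held 303 to 368 FPKM at day 1 and 116 to 239 at 12 weeks, where PLIN2 was also lower. In the sBAT SVF, where PLIN2 fell as well, the macrophage sums overlapped, at 325 to 365 and 133 to 374.5 FPKM. The single macrophage markers did not move together. As deposited, CD163, MRC1 and MSR1 were called lower at 12 weeks than at day 1 in both SVFs, and AIF1 higher. CD68, CSF1R, C1QA and CD14 were called in neither. In the iBAT SVF, CD163 went from 69.6 to 2.88 FPKM and MRC1 from 86.4 to 6.31 FPKM. For 5 smooth muscle and pericyte markers the sums were 878 to 1053 FPKM at day 1 and 143 to 248 at 12 weeks in the iBAT SVF, and 527 to 1267 and 342 to 557 in the sBAT SVF. The part of these cells in the results was not tested.

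The genes most like each member were sought by Pearson correlation of log2(FPKM + 1) over the 12 total iBAT libraries, among 6438 genes. These values are descriptions, since the libraries share ages and any gene with the same course over age scores high. CIDEA was most like SFT2D1 (r = 0.92), CTBP2 (0.889) and IGSF8 (0.884). CIDEC was most like SOD3 (0.982), NR1H2 (0.979) and MGAT4B (0.978). SOD3, the secreted superoxide dismutase, had means of 65.0 FPKM at day 1 and 308, 385 and 244 FPKM at the later ages. PLIN2 was most like UBR7 (0.985), and GFOD1 (0.981) was also among its most alike genes. UBR7 had means of 32.8, 12.4, 11.3 and 10.8 FPKM over the 4 ages. Among the members, r was 0.701 between CIDEA and CIDEC and -0.927 between CIDEC and PLIN2.

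Over the 24 SVF libraries and 6292 genes, CIDEA was most like DGAT2 (r = 0.924), the enzyme of the last step of triglyceride synthesis, then G0S2 (0.874), an inhibitor of the lipase ATGL, and ALDOC (0.873), and its r with CIDEC was 0.91. In the iBAT SVF, DGAT2 averaged 10.7 FPKM at day 1, then 39.5, 9.22 and 50.2 FPKM at the later ages, the same alternation as CIDEA. In the sBAT SVF its means were 18.9, 24.4, 39.1 and 166 FPKM.

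Genes that make, fill and empty droplets were counted for 12 weeks against day 1, beside all tested genes, of which 31.3% rose and 15.7% fell in total iBAT with a median log2 change of 0.19. After median ratio scaling 23.6% rose and 22.4% fell. In the iBAT SVF 14.5% of genes rose and 22.8% fell, and in the sBAT SVF 38.3% rose and 5.86% fell, or 14.8% and 15% after scaling, and the SVF counts of all lists are to be read against these shares. Of 5 lipolysis genes tested in total iBAT, 3 rose and 2 fell, with a median of 1.08. G0S2 rose from 49.5 ± 17.3 to 133 ± 49.5 FPKM (SD, n = 3) and LIPE, the hormone-sensitive lipase, from 98.5 ± 10.1 to 222 ± 20.2. ABHD5, the coactivator of ATGL, fell from 52.4 ± 7.90 to 25.6 ± 8.14 FPKM, and HILPDA, another inhibitor of ATGL, from 11.6 ± 4.97 to 5.53 ± 1.40, though HILPDA was no longer called in 3 of the 6 fits without 1 library (limma adjusted p up to 0.126). The iBAT SVF had 2 of 5 higher and none lower. Of the 5 in the sBAT SVF, 2 rose, near the share of all genes, and none fell, G0S2 there from 2.17 to 17.1 FPKM and LIPE from 2.79 to 17.8. After median ratio scaling 1 of the 5 fell in the sBAT SVF.

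Of 14 triglyceride synthesis genes in total iBAT, 7 rose and 3 fell (median 0.52), and 5 rose and 3 fell after median ratio scaling. The acyltransferases GPAT3 and GPAM rose, from 20.8 ± 2.48 to 139 ± 12.5 and from 29.1 ± 13.9 to 177 ± 31.3 FPKM. Their relative GPAT4 fell from 196 ± 69.8 to 13.3 ± 3.06 FPKM, and the acyl-CoA synthetase ACSL4 from 165 ± 14.1 to 37.3 ± 6.22. In the iBAT SVF 2 of 12 rose and 4 fell, and DGAT2 rose from 10.7 to 50.2 FPKM while the phosphatase LPIN1 fell from 19.2 to 4.74. In the sBAT SVF 5 of 12 rose and none fell, and 2 rose and 2 fell after scaling.

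Among 13 genes of droplet formation and the droplet surface in total iBAT, 6 rose and 2 fell (median 0.39). FITM2, which helps droplets bud from the endoplasmic reticulum, rose from 37.3 ± 3.91 to 110.4 ± 11.7 FPKM, and ANXA2, a lipid-binding annexin, from 275 ± 50.1 to 699 ± 106. VMP1, a membrane protein of the endoplasmic reticulum, fell from 54.2 ± 9.79 to 29.6 ± 2.89. BSCL2 (seipin), which organises droplet formation, rose in both SVFs, from 16.7 to 43.6 FPKM in the iBAT SVF and from 12.25 to 44.2 in the sBAT SVF. In the iBAT SVF 5 of 14 of these genes rose and 2 fell, and in the sBAT SVF 4 rose and 1 fell.

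Fatty acid uptake and binding genes split in total iBAT, where 2 of 8 rose and 3 fell (median -0.35). The lipase LPL, which frees fatty acids from blood lipoproteins, rose from 2351 ± 160.2 to 6372 ± 881 FPKM and FABP5 from 370.1 ± 83.3 to 869.8 ± 90.1. FABP3, the heart type fatty acid binding protein, fell from 1622 ± 297 to 5.19 ± 1.15 FPKM, and ANGPTL4, an inhibitor of LPL, from 94.3 ± 19.4 to 9.10 ± 2.80. After median ratio scaling a further gene fell, 4 of 8. LPL rose in both SVFs and was the 1 gene of the 8 to rise in each, and FABP3 fell in the sBAT SVF from 82.9 to 28.5 FPKM.

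Of 12 transcription factors and coactivators known to act on droplet genes, 6 rose and 5 fell in total iBAT (median 0.09, and -0.13 after median ratio scaling). CEBPA and SREBF1, which drive fat cell and lipid synthesis genes, rose from 35.8 ± 5.85 to 196 ± 14.6 and from 18.2 ± 4.50 to 68.6 ± 14.2 FPKM. The coactivators PPARGC1A and PPARGC1B fell from 47.2 ± 9.25 to 1.28 ± 0.09 and from 15.9 ± 2.86 to 4.86 ± 0.89. In the iBAT SVF 2 of 11 rose and 3 fell, with SREBF1 and NR1H3 (LXR alpha) among those that rose. In the sBAT SVF 5 of 11 rose and 1 fell, CEBPA from 4.32 to 23.7 FPKM, and 4 rose and 4 fell after scaling.

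CIDEA is often listed with brown fat genes. It was chosen because it did not fall with UCP1, so its distance from genes that fell with UCP1 is part of that choice and no separate result. All 9 thermogenic genes tested beside UCP1, PPARGC1A again among them, fell in total iBAT, with a median log2 change of -4.38, where CIDEA stood at 1.01. GK, glycerol kinase, fell from 129 ± 10.7 to 2 ± 0.55 FPKM (SD, n = 3) and DIO2, the enzyme that activates thyroid hormone, from 39.9 ± 9.44 to 0.12 ± 0.02. PLIN2, at -2.78, lay between EBF2, which fell least (-1.01), and GK, which fell most (-5.45). Of 7 thermogenic genes tested in the iBAT SVF 5 fell, and in the sBAT SVF 2 fell and 1, EBF2, rose, but EBF2 no longer passed after median ratio scaling (limma adjusted p = 0.0781) and 3 then fell.

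**Figure D5:**
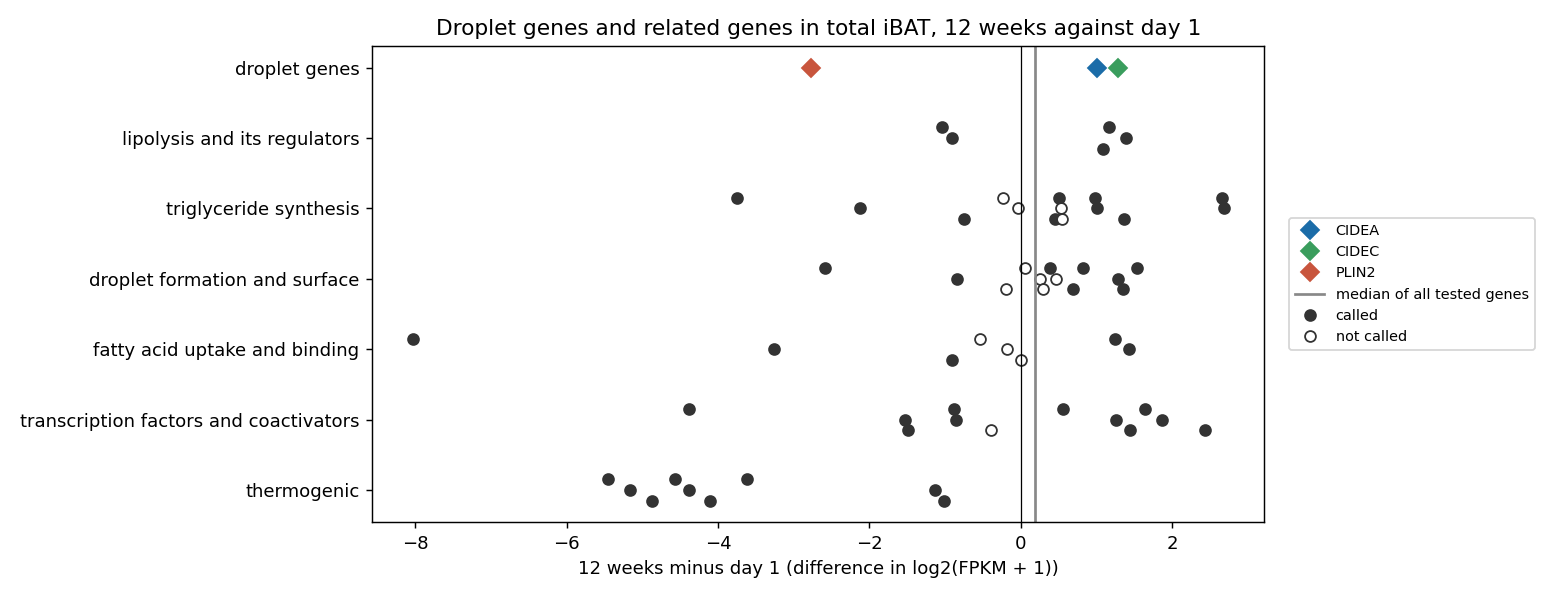
Change from day 1 to 12 weeks in total iBAT (difference in log2(FPKM + 1), horizontal axis) of CIDEA, CIDEC and PLIN2 (diamonds) and of genes of 6 lists (circles, filled where called by limma), with a grey line for the median of all tested genes. CIDEA and CIDEC lay at 1.01 and 1.28, PLIN2 at -2.78, and all 9 thermogenic genes below 0.

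CIDEB, the third gene of the CIDE family, was in both tables at 0 to 0.92 FPKM in all 36 libraries, so its level was near the lower end of what was measured. PLIN1 was not analysed here.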

How the data were processed

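The authors deposited 2 tables of FPKM, 1 for total iBAT (12 libraries) and 1 for the SVF (24 libraries), per the file headers. The submitters' processing notes name HISAT2 2.0.4, Bowtie2 2.2.5 and the genome build OryCun2.0. The quantification tool and annotation are not given in the sources used here. Each column was mapped to its sample by name, and the members were matched between the tables by gene identifier. Genes that reached 1 FPKM in 3 or more libraries (12853 in total iBAT, 13274 in the SVF) were fitted on log2(FPKM + 1) with limma 3.58.1 (R 4.3.3), with 1 mean per group and a variance trend. This scale understates changes at low FPKM. Two-sided p-values were Benjamini-Hochberg adjusted over all tested genes within each of 17 comparisons, and an adjusted p under 0.05 was called. The fit was tested on simulated data. The members, gene lists, marker lists and tests were chosen with earlier results of these data known. Named list genes were the called ones that rose most and fell most, up to 2 each way per list, with a mean of at least 10 FPKM at either age, and for the SVF some of these are named. Genes set beside a member as most alike had a symbol and a group mean of at least 10 FPKM. Alternatives were a pseudocount of 0.1, no filter, a filter at 5 FPKM, median ratio scaling, totals without ADORA1 and LOC100009266, no variance trend, only the groups compared, a replicate block and leaving out each library. Leaving 1 total iBAT and 3 sBAT SVF libraries of 3 weeks out of the fit was chosen after seeing the data. Tables and figures were made with Python 3.11.15.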

Additional observations from a re-analysis of the deposited data

How the results depend on the processing

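The number of members called moved in 17 of 256 alternative fits, and log2 changes of single members reversed in 23 fits and kept direction and call in 720. In each case below the cause was not tested unless the setting itself names it. Fitted with only the groups compared, 0 members were called in the iBAT SVF between 3 and 6 weeks and 1 in the interaction. After median ratio scaling 0 were called between the depots at 3 weeks (7.86% of all genes called) and 1 at 12 weeks (9.78%). With the 2 dominant genes left out 1 was called between the depots at 3 weeks, where 2160 of 13640 genes were called. In the same setting 1 was called in the sBAT SVF between day 1 and 3 weeks, where 4171 of 13640 genes were. Replicate numbers did not pair the libraries over all ages, since the deviations of same-numbered libraries of the depots correlated at -0.280 to 0.584. At 12 weeks, however, all 3 pairs were above 0.1. The 3 pairs of day 1 were positive as well, at 0.065 to 0.584 with a median of 0.331. With the replicate block 1 member was called between the depots at 12 weeks and 1 in the interaction, CIDEC (limma adjusted p = 0.0139), while CIDEA between the depots at 12 weeks was lost (limma adjusted p = 0.0522), and the block changed no other call of a member. Without the sBAT SVF libraries of 3 weeks in the fit 1 member was called in the interaction. The shares of all genes called are not given for the fits with only the groups compared, with the replicate block or with libraries left out. Counts from those fits therefore describe the members alone.

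Median ratio scaling turned CIDEC in the sBAT SVF between 3 and 6 weeks to -1.36, CIDEA between the depots at 3 weeks to 0.025, PLIN2 between the depots at 6 and 12 weeks to -0.036 and -0.050, and PLIN2 in the interaction to -0.54. Leaving out the 2 dominant genes turned CIDEC in the sBAT SVF between 3 and 6 weeks to -1.51, CIDEA and PLIN2 between the depots at 3 weeks to 0.36 and 0.14, and PLIN2 in the interaction to -0.36.

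Leaving out 1 library at a time, the number of members called ranged from 1 to 2 in the iBAT SVF between 6 and 12 weeks, from 0 to 1 in the sBAT SVF between 6 and 12 weeks, from 1 to 2 between the depots at 3 weeks and at 12 weeks, and from 0 to 1 in the interaction, and it was constant in the other 12 comparisons. Changes near 0 crossed it. CIDEC ranged from -0.27 to 0.19 in total iBAT between 3 and 6 weeks and from -0.42 to 0.048 between 6 and 12 weeks, from -0.18 to 0.27 in the sBAT SVF between 3 and 6 weeks, and between the depots from -0.0021 to 0.54 at day 1 and from -0.50 to 0.37 at 3 weeks. PLIN2 ranged from -0.49 to 0.43 in the iBAT SVF between 3 and 6 weeks, from -0.22 to 0.69 between the depots at 6 weeks and from -0.093 to 0.24 in the interaction. None of these passed in any of those fits. With 3 libraries a group, no read depth and each table scaled on its own, small changes could not be resolved.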
